A study of Pan troglodytes with 6 samples.

Results

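Glycosyltransferases and their partner sulfotransferases are the Golgi enzymes that build and finish the sugar chains of glycoproteins, glycolipids and proteoglycans. The 95 genes described here carry the names of 13 such families: the sialyltransferases ST3GAL, ST6GAL and ST8SIA, the chain-extending B3GAL, B3GNT and B4GAL enzymes, the GALNT enzymes that start O-linked chains, the MGAT enzymes that branch N-linked chains, the fucosyltransferases FUT, the carbohydrate sulfotransferases CHST, and the EXT, NDST and HS2ST, HS3ST and HS6ST enzymes of heparan sulfate. They were chosen by symbol alone, from the 12685 features of the array that the platform annotation pairs with exactly 1 gene symbol, of 15143 features in all. The names matched 97 features, and where 2 features shared a symbol (GALNT3 and CHST15) the one with the higher mean was kept. A further 12 features name such a gene together with another gene and were not used. One of the 95, B3GALT5-AS1, is an antisense RNA named after a galactosyltransferase and not an enzyme.

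Each transferase moves 1 sugar or sulfate from an activated donor to a growing chain, so the set of enzymes a cell makes largely fixes which chains it carries. In the brain, sialic acid is found mainly on gangliosides, the sialylated glycolipids of neuronal membranes, and as polysialic acid on the adhesion molecule NCAM. In the liver, hepatocytes put branched, galactosylated and sialylated N-glycans on the proteins they secrete into plasma, and sialic acid caps keep those proteins from the asialoglycoprotein receptor that clears them.

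RNA from chimpanzee (Pan troglodytes) cerebellum and liver, with no treatment or genotype named in the labels, was hybridised to Affymetrix Human Exon 1.0 arrays, whose probes were designed on human sequence. There were 3 arrays per tissue, labelled as biological replicates. In both tissues replicate 1 was a female aged 27 years, replicate 2 a male aged 37 years and replicate 3 a male aged 30 years. All intensities below are the authors' values on a linear scale, all differences are cerebellum minus liver on the scale log2(intensity + 16.8), and a gene is called higher in a tissue where limma's test over all features gave an adjusted p under 0.05 (n = 3 per tissue throughout). Intensities of different genes are not compared, because each gene has its own probes and its own mismatches to chimpanzee sequence.

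The tissues carried the markers of their labels. The 11 measured markers of cerebellar neurons were all called higher in cerebellum, with summed intensities of 18329 to 20823 in cerebellum against 315 to 477 in liver, and the 8 measured hepatocyte markers were all called higher in liver, with sums of 71.8 to 167 in cerebellum against 25131 to 30493 in liver. Liver also held more signal of other cells. All 10 markers of macrophages, Kupffer cells and microglia were called higher there (sums of 257 to 569 in cerebellum against 5276 to 9506 in liver), as were 8 of 11 endothelial markers, 9 of 11 markers of T and natural killer cells and 7 of 10 on the list of fibroblast, stellate and smooth muscle genes. These lists move with every gene called higher in liver, and their part in those differences was not tested. In tissue RNA, fewer cells of a type and less RNA per cell cannot be told apart. On liver replicate 3, 12 of the 95 members lay over 2-fold above or below both other livers. That was 12.6%, against 7.52% of all features. On each of the other 5 arrays this held for 1 to 6 members. Those were 1.05% to 6.32% of the members, against 1.15% to 5.83% of all features. Liver replicate 3 also had the highest marker sums of macrophages (5367, 5276 and 9506 in liver replicates 1 to 3), of T and natural killer cells (612, 621 and 1021) and of fibroblast, stellate and smooth muscle cells (2031, 1721 and 4418). The same held for endothelial (2494, 2758 and 3040), bile duct (1674, 1519 and 2361) and red cell and neutrophil markers (379, 568 and 638). The hepatocyte sum was lowest on that liver (30493, 28927 and 25131). Cerebellum replicate 2 had the highest cerebellum sums of macrophage (285, 569 and 257 in cerebellum replicates 1 to 3), endothelial (371, 609 and 349), fibroblast, stellate and smooth muscle (875, 1821 and 932) and astrocyte markers (4283, 6900 and 5295). Its sum of cerebellar neuron markers was also the highest (18329, 20823 and 19078). Of these markers SNAP25 (4700, 3676 and 4194) and ZIC1 (3151, 2852 and 3882) were lowest there. STMN2 (2852, 2715 and 2521) was not highest there, and the other measured neuron markers were. Oligodendrocyte (5629, 1720 and 2305) and T and natural killer cell sums (329, 221 and 303) were lowest there. So was the sum of B and plasma cell markers (297, 248 and 341). In cerebellum most of the fibroblast list sum was RGS5 (313, 651 and 210), THY1 (257, 476 and 361) and DCN (114, 474 and 185). THY1 was itself called higher in cerebellum. On that list COL1A1 (27.6, 22.6 and 26.3) and COL3A1 (14.1, 9.63 and 14.7) were not highest on cerebellum replicate 2. The part of all these markers in the members that stand apart on liver replicate 3 and cerebellum replicate 2 was not tested.

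Of the 95 members, 32 were called higher in cerebellum and 22 higher in liver, together 54, and 41 were not called. Among all features 50.6% were called, 26.7% higher in cerebellum and 23.9% higher in liver, against 33.7% and 23.2% of the members. A difference of at least 2-fold was called for 24 members toward cerebellum and 17 toward liver, where the shares of all features were 17.2% and 15.8%. The 3 cerebellum values lay entirely above the liver values for 37 members and entirely below them for 28, where these shares were 31.0% and 28.5% of all features. The median difference was 0.13 over the members and 0.04 over all features. The share called toward liver was near that of all features, and no lean of the members as a group is read from these counts. Calls in both directions were found in 10 of the 13 families, but with 26.7% and 23.9% of all features called each way, nothing about relatedness is read from this count, and no sets of unrelated genes were compared. The other families were the B3GAL and B3GNT families, with 4 and 0 calls toward cerebellum and 0 and 2 toward liver, and the EXT family, whose single call was toward liver. The class counts given below stand against the same shares of all features, and no lean of a class was tested.

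The scale on which the tissues are set against each other moved these counts. When the arrays were set level on 101 general genes (those of ribosomes, the proteasome and the respiratory chain), every difference moved toward cerebellum by 0.52, and the members called were 49 toward cerebellum and 14 toward liver. The share of called members that were higher in cerebellum was then 77.8% in place of 59.3%, and that of called features 76.6% in place of 52.8%. The calls of B3GNT3, B4GALNT3, B4GALT2, CHST6, GALNT1, GALNT4, HS3ST2 and ST3GAL4 toward liver were lost under this alignment, and no called member changed direction.

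**Figure D1:**
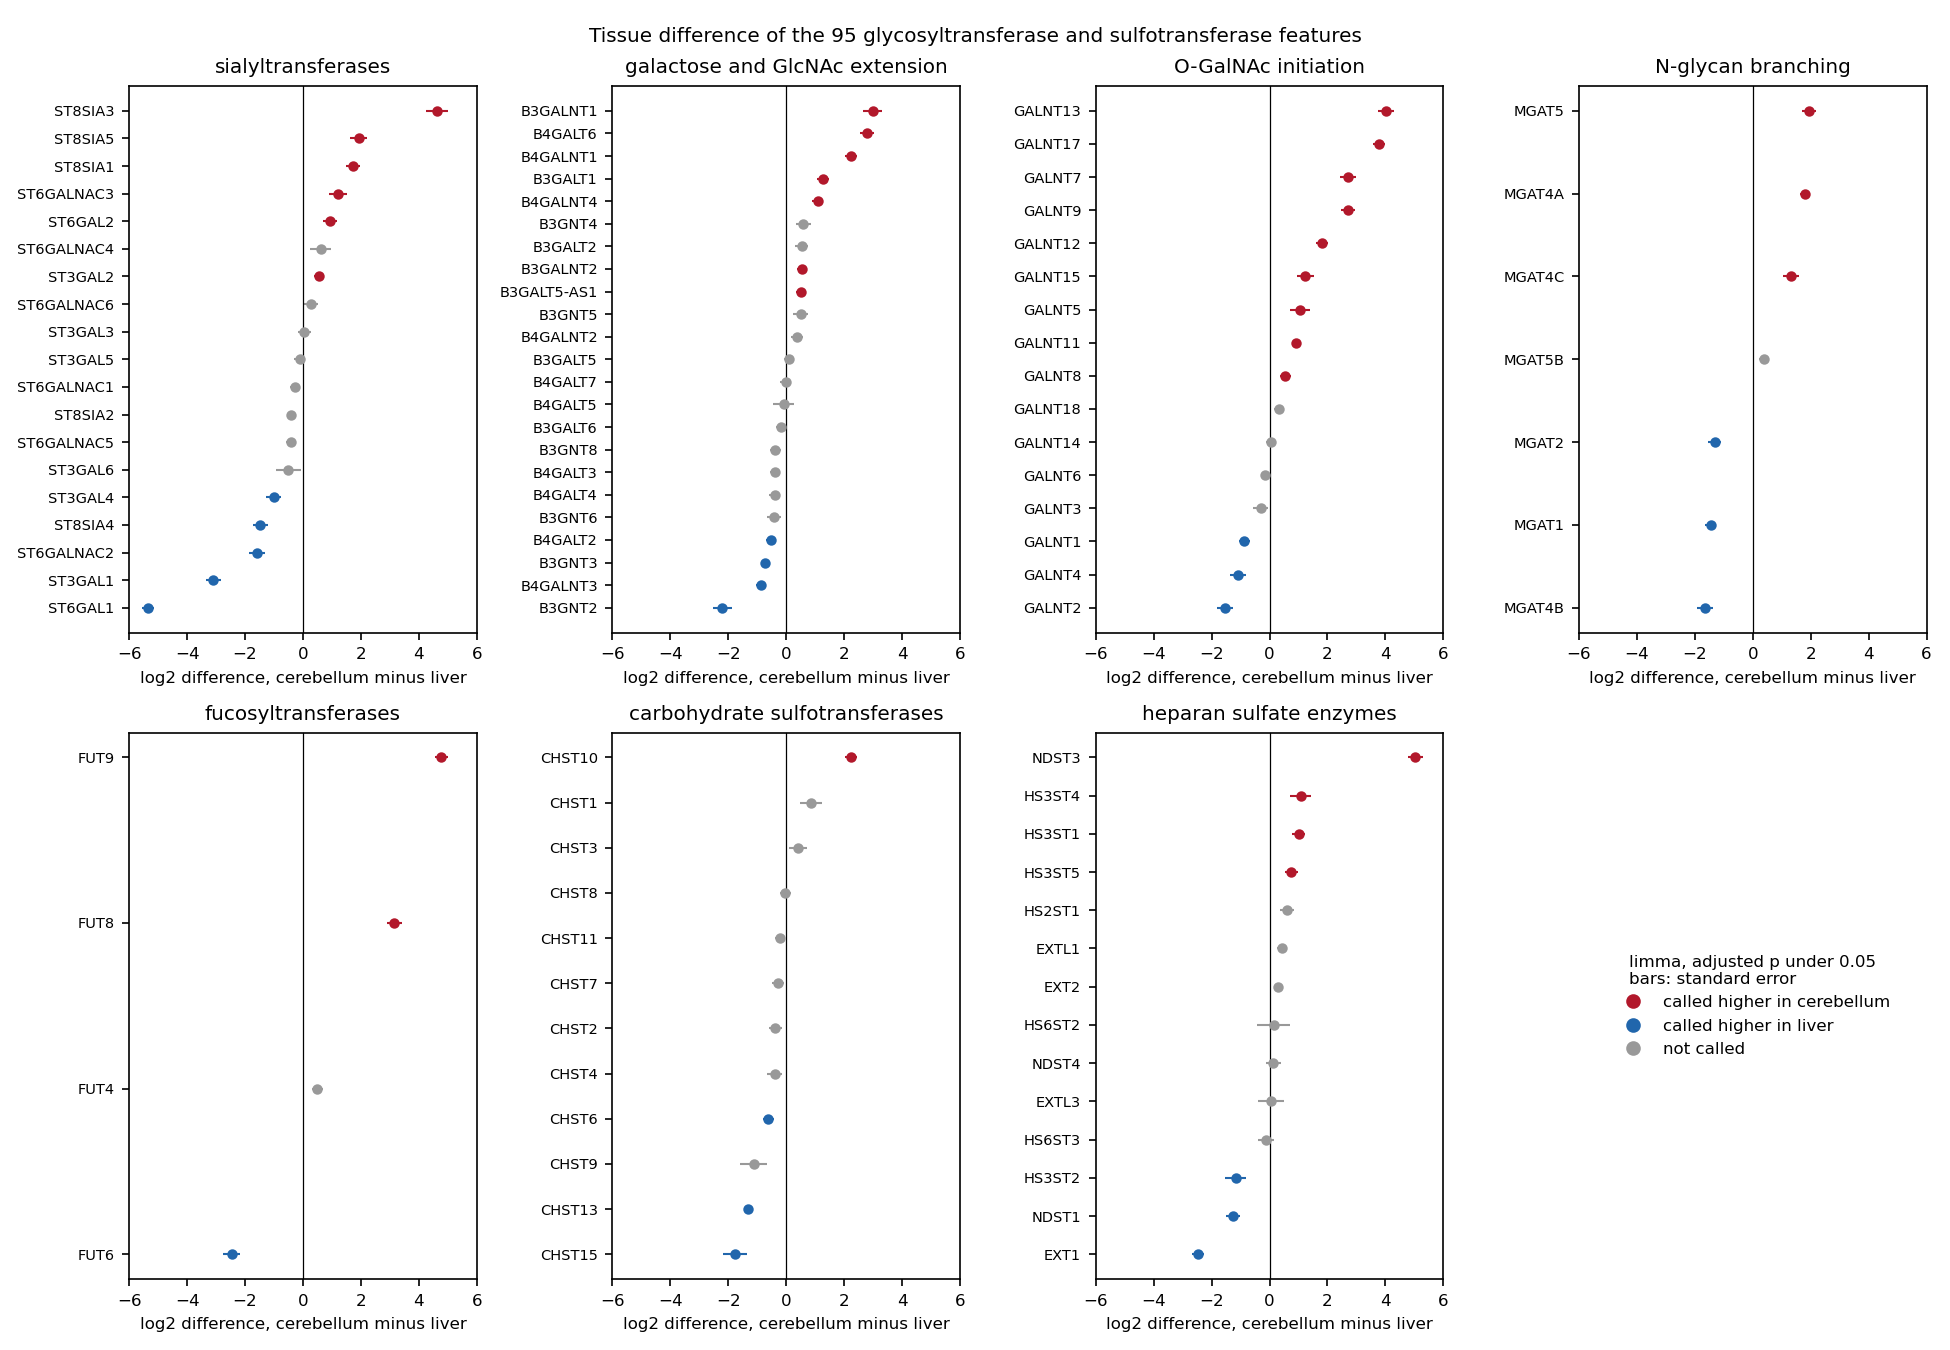
Log2 difference (cerebellum minus liver, horizontal axis) of each of the 95 members in 7 classes of enzyme, with its standard error as a bar; red points were called higher in cerebellum, blue points higher in liver and grey points were not called. Every class holds red and blue points, from -5.36 for ST6GAL1 to 5.04 for NDST3.

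Sialyltransferases differ in the linkage they make and in their acceptor. Of 19 measured, 6 were called higher in cerebellum, 5 higher in liver and 8 were not called. The largest difference toward liver among all members was that of ST6GAL1, which adds alpha2,6-linked sialic acid to the N-glycans of secreted and membrane glycoproteins. Its intensities were 44.6, 44.9 and 24.4 in cerebellum against 2354, 2190 and 2045 in liver. The liver values were close together and the highest cerebellum value was far below the lowest of them (difference -5.36, standard error 0.21, adjusted p = 3.30e-07; limma). Plasma cells and B cells are another known source of this enzyme. Of 7 measured markers of those cells 3 were called higher in liver and 1 higher in cerebellum, with summed intensities of 248 to 341 in cerebellum against 895 to 1093 in liver. JCHAIN carried this gap, at 3.08, 2.99 and 7.13 in cerebellum against 734, 624 and 730.2 in liver, and the other 6 markers summed to 294, 245 and 334 in cerebellum against 359, 271 and 318 in liver. The part of those cells in the ST6GAL1 difference was not tested. ST6GAL2, the other enzyme that makes this linkage, went the other way at 66.5, 77.8 and 50.5 in cerebellum against 37.3, 13.4 and 30.3 in liver. Its tissues did not overlap and liver replicate 2 was the lowest (difference 0.93, standard error 0.25, adjusted p = 0.0145; limma), but with cerebellum replicate 2 omitted it was no longer called (limma, adjusted p = 0.0511).

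Of the 6 alpha2,3-sialyltransferases 1 was called higher in cerebellum, 2 higher in liver and 3 were not called. ST3GAL1, which caps the core of O-linked chains, gave 23.0, 15.5 and 23.5 in cerebellum against 364, 381 and 195 in liver, with liver replicate 3 below the other livers and every liver value far above the cerebellum (difference -3.10, standard error 0.26, adjusted p = 2.31e-05; limma). ST3GAL4, which acts on galactose at the ends of N-glycans, had mean intensities (± SD, n = 3) of 59.7 ± 15.7 in cerebellum against 139 ± 42.7 in liver and was also called higher in liver, by a difference of -1.02. ST3GAL2, an enzyme of the terminal sialic acid of brain gangliosides, was at 281 ± 19.0 in cerebellum against 185 ± 14.9 in liver and was the family's call toward cerebellum (difference 0.56, standard error 0.16, adjusted p = 0.0193; limma), and it was no longer called with cerebellum replicate 1 omitted (limma, adjusted p = 0.0663). ST3GAL3, ST3GAL5 and ST3GAL6 were not called, with differences of 0.05, -0.11 and -0.50. ST3GAL6 was at 316, 129 and 256 in cerebellum against 489, 398 and 164 in liver, and its tissues overlapped, with liver replicate 3 over 2-fold below the other livers.

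Enzymes that attach sialic acid to GalNAc or to another sialic acid were also called in both directions. ST6GALNAC2, which acts on the first sugar of O-linked chains, was at 16.2, 25.5 and 10.4 in cerebellum against 109, 97.6 and 54.3 in liver, all livers being above all cerebella (difference -1.58, standard error 0.26, adjusted p = 0.00119; limma). ST6GALNAC3, which acts on already sialylated chains, was at 303, 169.7 and 147 in cerebellum against 91.9, 95.1 and 49.4 in liver, with cerebellum replicate 1 the highest and no overlap (difference 1.2, standard error 0.31, adjusted p = 0.0108; limma). By the order of protein-coding genes in RefSeq's chimpanzee annotation (assembly NHGRI_mPanTro3-v2.0_pri), ST6GALNAC3 and ST6GALNAC5 are neighbours, and so are ST6GALNAC1 and ST6GALNAC2. In each of these pairs 1 gene was called and the other was not, with differences of -0.42 for ST6GALNAC5 and -0.29 for ST6GALNAC1. ST6GALNAC4 was dim and uneven in liver, at 5.97, 2.54 and 37.9, and was not called, nor was its neighbour ST6GALNAC6 at 0.27.

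Among the alpha2,8-sialyltransferases, ST8SIA3, a brain enzyme that adds sialic acid to sialylated glycoproteins and glycolipids, was at 1467, 512 and 549 in cerebellum against 10.2, 19.6 and 13.3 in liver. Cerebellum replicate 1 was over 2-fold above the other cerebella, and the difference was 4.63 with that array and 4.15 without it (limma, adjusted p = 1.75e-05 with all arrays). The 5 measured oligodendrocyte markers also summed highest on that array, at 5629, 1720 and 2305 in the 3 cerebella, most of it MBP, and without MBP at 1332, 754 and 824. Their part in the ST8SIA3 values was not tested. ST8SIA1 and ST8SIA5, which make the gangliosides GD3 and GT3, were called higher in cerebellum too. ST8SIA1 was at 82.9, 63.8 and 76.1 in cerebellum against 6.02, 6.72 and 21.9 in liver (difference 1.72, standard error 0.24, adjusted p = 3.92e-04; limma). ST8SIA5 was at 136, 177 and 145 in cerebellum against 56.1, 19.1 and 17.5 in liver (difference 1.92, standard error 0.30, adjusted p = 7.65e-04; limma). In neither did the tissues overlap, although liver replicate 1 was high for ST8SIA5 and liver replicate 3 for ST8SIA1. The polysialyltransferases of NCAM did not follow them. ST8SIA4 was at 17.7, 18.0 and 16.6 in cerebellum against 60.5, 60.1 and 128 in liver. Every liver was higher, and liver replicate 3 was the highest. That array had the highest macrophage, T and natural killer cell, endothelial, fibroblast, bile duct and red cell and neutrophil marker sums given above. Its hepatocyte sum was the lowest. The ST8SIA4 difference was -1.48 with that array and -1.17 without it (limma, adjusted p = 0.00155 with all arrays), and the part of those cells was not tested. ST8SIA2, the polysialyltransferase known from the developing brain, was at 47.8 ± 6.30 in cerebellum against 68.2 ± 4.08 in liver and was not called (difference -0.40; limma, adjusted p = 0.0722). NCAM1, the main carrier of polysialic acid, was itself at 1112 ± 73.4 in cerebellum against 34.4 ± 19.0 in liver, a difference of 4.52.

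**Figure D2:**
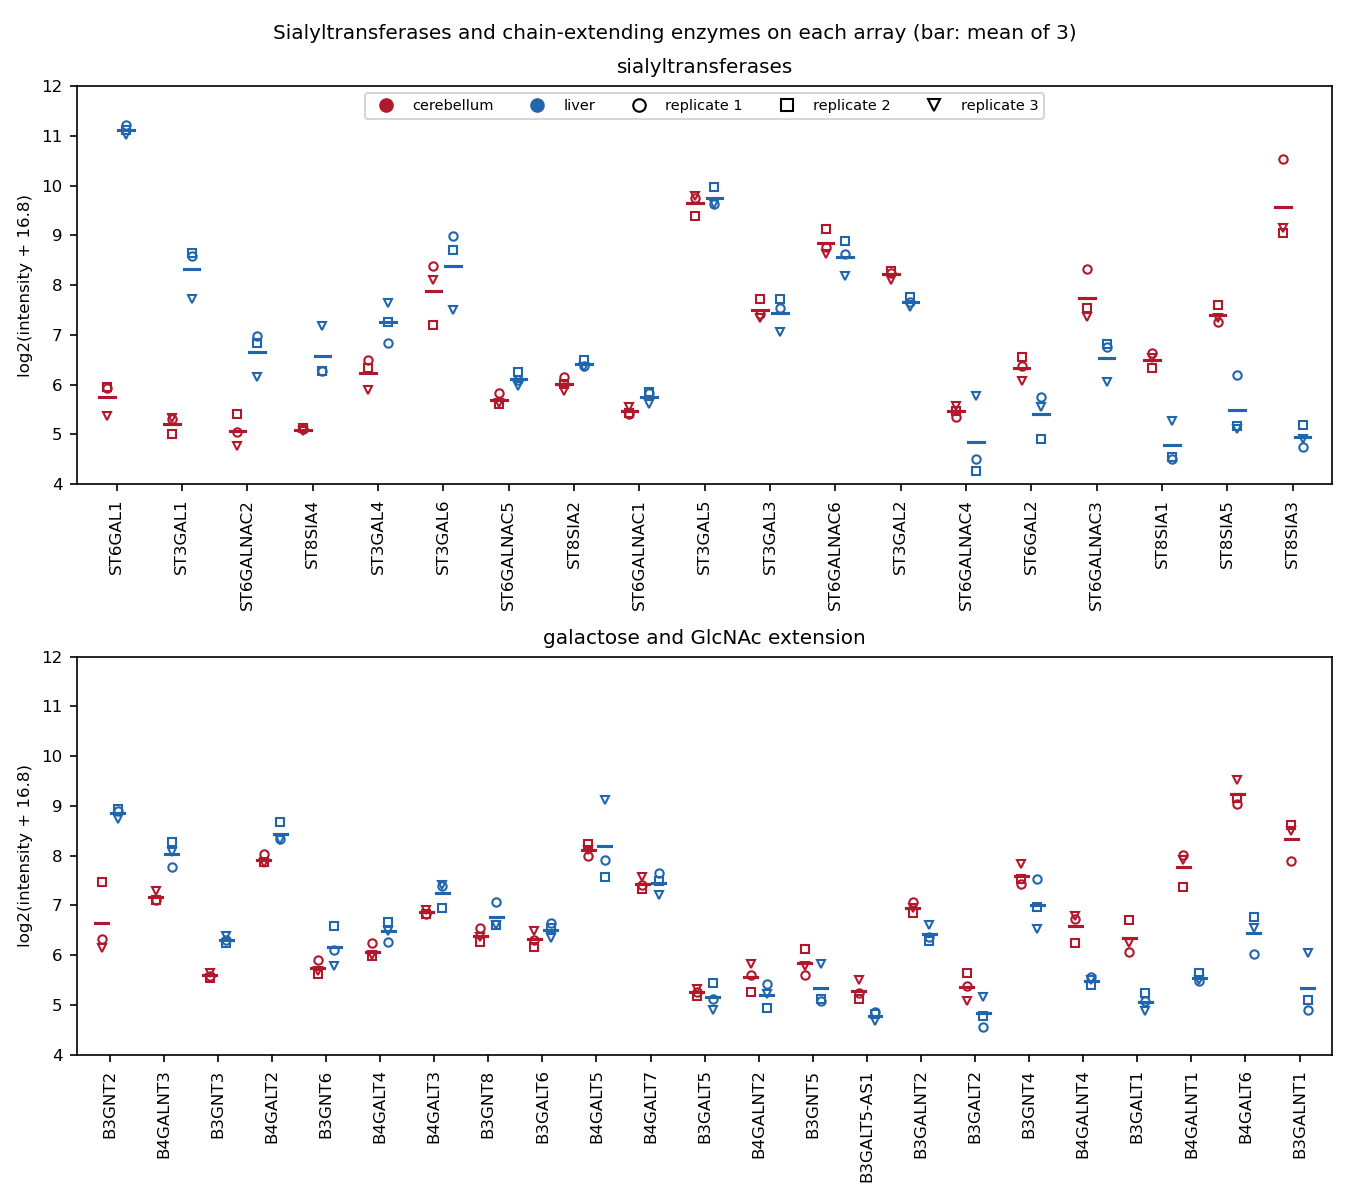
Log2(intensity + 16.8) of each sialyltransferase (upper panel) and each chain-extending enzyme (lower panel) on the 3 cerebellum arrays (red) and the 3 liver arrays (blue), with the replicate as the symbol and the mean as a bar; genes run from the most negative to the most positive difference, and heights are to be compared between tissues within a gene. ST6GAL1 and ST8SIA3 lie at opposite ends, and the cerebellum values of ST8SIA3 are spread by replicate 1.

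Some enzymes of ganglioside synthesis are measured and can be followed in order, but B3GALT4 is not among the members. Lactosylceramide, the starting point, is made by B4GALT5 and B4GALT6. B4GALT6 was at 512, 553 and 720.2 in cerebellum against 48.4, 92.9 and 77.0 in liver, higher in every cerebellum (difference 2.79, standard error 0.24, adjusted p = 2.34e-05; limma), whereas B4GALT5 was at 237, 284 and 262 in cerebellum against 223, 173 and 541 in liver, with no call and with liver replicate 3 over 2-fold above the other livers. The next enzyme, ST3GAL5, which makes GM3, was at 838, 652 and 870.5 in cerebellum against 779, 986 and 776 in liver, and the tissues overlapped (difference -0.11, standard error 0.19, adjusted p = 0.675; limma). B4GALNT1, which makes GM2 and GD2 and so opens the complex gangliosides, was at 243, 149 and 225 in cerebellum against 27.7, 33.3 and 28.7 in liver. Each cerebellum was above each liver (difference 2.23, standard error 0.21, adjusted p = 4.11e-05; limma), as with ST8SIA1 and ST8SIA5 above. ST3GAL5, the enzyme of the first sialylation, was thus not called, and B4GALNT1, ST8SIA1 and ST8SIA5, which act after it, were called higher in cerebellum. Of the other glycolipid enzymes listed, UGT8, which makes the galactolipids of myelin, was at 442, 111 and 202 in cerebellum against 19.5, 11.6 and 6.24 in liver and was called higher in cerebellum (difference 3.03). UGT8 is itself 1 of the 5 oligodendrocyte markers summed above. UGCG, GAL3ST1 and A4GALT were not called, at -0.20, 0.52 and -0.14; set level on the general genes, these 4 glycolipid genes held 2 calls toward cerebellum in place of 1.

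The chain-extending enzymes numbered 23, of which 7 were called higher in cerebellum, 4 higher in liver and 12 were not called. B3GALNT1, which makes the glycolipid globoside, was at 221, 374 and 345 in cerebellum against 13.01, 17.5 and 49.3 in liver. All cerebella were above all livers, among which replicate 3 was the highest (difference 2.99, standard error 0.33, adjusted p = 1.03e-04; limma). B3GALT1, a beta1,3-galactosyltransferase, was at 50.1, 88.1 and 58.8 in cerebellum against 17.0, 21.0 and 12.8 in liver without overlap (difference 1.27), and B4GALNT4, which makes the GalNAc-ended LacdiNAc unit, was called higher in cerebellum by 1.09. B4GALNT3, which makes the same unit, was at 121, 122 and 139 in cerebellum against 202, 293 and 253 in liver, each liver being above each cerebellum (difference -0.87, standard error 0.19, adjusted p = 0.00452; limma). The remaining calls toward cerebellum were small: B3GALNT2, an enzyme of dystroglycan O-mannose chains, at 0.53, and the dim antisense RNA B3GALT5-AS1 at 0.50. B3GALNT2 was no longer called on omitting cerebellum replicate 1 or 3 or liver replicate 1 or 2, nor was B3GALT5-AS1 on omitting cerebellum replicate 1 or 3 or any liver.

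In the same class, B3GNT2, the main enzyme of polylactosamine chains, was the clearest gene toward liver, at 63.3, 161 and 54.5 in cerebellum against 458, 471 and 412 in liver. Cerebellum replicate 2 was over 2-fold above the other cerebella and still below every liver (difference -2.20, standard error 0.33, adjusted p = 6.10e-04; limma). The macrophage, endothelial, fibroblast, astrocyte and neuron marker sums given above were highest on that cerebellum too, and their part was not tested. B3GNT3, which extends core 1 O-glycans, was at 31.3, 30.1 and 33.4 in cerebellum against 62.6, 59.2 and 66.9 in liver, a small difference of -0.72 with close replicates. B4GALT2, a galactosyltransferase of N-glycans, was at 244, 219 and 213 in cerebellum against 307, 393 and 300.3 in liver (difference -0.52, standard error 0.18, adjusted p = 0.0362; limma), and it was no longer called on omitting any 1 of the cerebella or liver replicate 2. B4GALT3, B4GALT4 and B3GNT8 had all livers above all cerebella without passing the test, with differences of -0.39, -0.41 and -0.38. B4GALT7 and B3GALT6, which add the galactoses of the linker that joins glycosaminoglycans to their proteins, were not called, at -0.02 and -0.19. B3GNT5, which opens the lacto-series glycolipids, was likewise not called, and its liver values were 17.2, 18.2 and 40.2.

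The GALNT enzymes, which place the first GalNAc on serine or threonine, had 9 calls toward cerebellum and 3 toward liver among 16, and 4 were not called. Of all features 26.7% were called toward cerebellum and 23.9% toward liver. The median difference was 0.73 over these 16 and 0.04 over all features, and no lean of the class was tested. The largest difference was that of GALNT13, an enzyme known from neurons, at 611, 309 and 612 in cerebellum against 12.3, 15.1 and 16.1 in liver, with cerebellum replicate 2 the lowest of the cerebella and far above the livers (difference 4.02, standard error 0.27, adjusted p = 5.77e-06; limma). GALNT17 was at 460.2, 485 and 381 in cerebellum against 11.1, 14.4 and 25.8 in liver (difference 3.78, standard error 0.21, adjusted p = 2.10e-06; limma). GALNT9, also known from brain, was at 104, 157 and 138 in cerebellum against 11.5, 7.79 and 0.432 in liver (difference 2.70, standard error 0.24, adjusted p = 2.76e-05; limma). For both, the cerebella stood well above the livers. GALNT7, which prefers peptides that already carry a GalNAc, was at 264, 241 and 276 in cerebellum against 23.7, 12.2 and 48.0 in liver (difference 2.71, standard error 0.28, adjusted p = 7.38e-05; limma). GALNT12, GALNT15 and GALNT11 followed with differences of 1.80, 1.24 and 0.92. GALNT5 was at 38.8, 47.6 and 127 in cerebellum against 23.8, 26.2 and 16.1 in liver, and its difference of 1.05 fell to 0.63 without cerebellum replicate 3 (limma, adjusted p = 0.0592), and it was not called on omitting any 1 liver either. GALNT8 was dim in both tissues, at 18.5, 13.3 and 11.1 in cerebellum against 9.14, 2.21 and 2.83 in liver, and it was no longer called on omitting any 1 cerebellum or liver replicate 2 or 3.

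The broadly expressed GALNT1 and GALNT2 went toward liver. GALNT2, which acts on apolipoproteins and other secreted proteins, was at 139, 179 and 146 in cerebellum against 479, 707 and 329 in liver (difference -1.55, standard error 0.27, adjusted p = 0.00155; limma). GALNT1 was at 144, 187 and 135 in cerebellum against 259, 273 and 360.2 in liver (difference -0.87, standard error 0.20, adjusted p = 0.00681; limma). The livers were above the cerebella in both. GALNT4 was at 88.0, 57.1 and 49.98 in cerebellum against 100.3, 198 and 185 in liver (difference -1.10, standard error 0.28, adjusted p = 0.0108; limma); it overlaps the gene POC1B, with which it can share signal. GALNT3, GALNT6, GALNT14 and GALNT18 were not called, with differences from -0.31 to 0.33. The second feature named GALNT3 was not called either, at 0.11. Of the genes that build on this first GalNAc, C1GALT1C1, the chaperone of the core 1 enzyme, and the branching enzyme GCNT4 were called higher in liver, at -1.14 and -2.17, and the core 1 enzyme C1GALT1 was not called (-0.51). GCNT4 lay below 0 on average in cerebellum and unevenly in liver, at 19.2, 40.2 and 192.

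The branching enzymes of N-glycans had 3 calls in each direction among 7 genes. MGAT1 and MGAT2, which add the first GlcNAc to each arm and so open the complex type of chain, were both higher in liver. MGAT1 was at 169.9, 176 and 156 in cerebellum against 494, 575 and 406 in liver, without overlap and with close cerebella (difference -1.45, standard error 0.18, adjusted p = 2.37e-04; limma). MGAT2 was at 71.2, 127 and 101 in cerebellum against 294, 235 and 281 in liver, again without overlap (difference -1.32, standard error 0.22, adjusted p = 0.00111; limma). MGAT5, which adds the beta1,6 branch later on, was at 386, 393 and 481 in cerebellum against 71.0, 90.03 and 141 in liver, higher in every cerebellum (difference 1.93, standard error 0.24, adjusted p = 2.14e-04; limma).

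MGAT4A and MGAT4B, which make the same beta1,4 branch, were called in opposite directions. MGAT4A was at 303, 286 and 330.2 in cerebellum against 80.7, 66.6 and 80.4 in liver (difference 1.80, standard error 0.16, adjusted p = 3.51e-05; limma). MGAT4B was at 93.2, 96.9 and 97.9 in cerebellum against 213, 370.3 and 489 in liver (difference -1.66, standard error 0.28, adjusted p = 0.00118; limma). The cerebellum values of each lay close together, and the liver values of MGAT4B spread over more than 2-fold. MGAT4C, a relative of both, was at 41.1, 88.8 and 42.3 in cerebellum against 7.10, 11.1 and 18.5 in liver. Cerebellum replicate 2 was over 2-fold above the other cerebella, all of which were above the livers (difference 1.32, standard error 0.27, adjusted p = 0.00388; limma). Macrophage, endothelial, fibroblast, astrocyte and neuron marker sums given above were highest on that cerebellum, and their part was not tested. MGAT5B, known for branching O-mannose chains in brain, had cerebellum values above liver values but was not called (difference 0.39; limma, adjusted p = 0.0954).

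Fucosyltransferases had some of the largest differences. FUT9, which makes the Lewis X antigen of brain, was at 745, 576 and 751 in cerebellum against 2.69, 11.7 and 14.4 in liver; the liver values were near the bottom of the scale and all cerebella were far above them (difference 4.77, standard error 0.23, adjusted p = 8.96e-07; limma). FUT8, the only enzyme that adds the core alpha1,6-fucose of N-glycans, was at 843, 1364 and 976 in cerebellum against 80.7, 89.1 and 147 in liver, with cerebellum replicate 2 the highest (difference 3.15, standard error 0.26, adjusted p = 2.00e-05; limma). FUT6, an alpha1,3-fucosyltransferase known from liver and plasma, was at 10.1, 16.1 and 12.9 in cerebellum against 235, 97.8 and 136 in liver, with liver replicate 1 the highest (difference -2.47, standard error 0.28, adjusted p = 1.30e-04; limma); FUT3 and FUT5 are near-identical copies whose signal it can share. FUT4 had cerebellum above liver on all arrays and was not called (difference 0.49; limma, adjusted p = 0.0624).

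**Figure D3:**
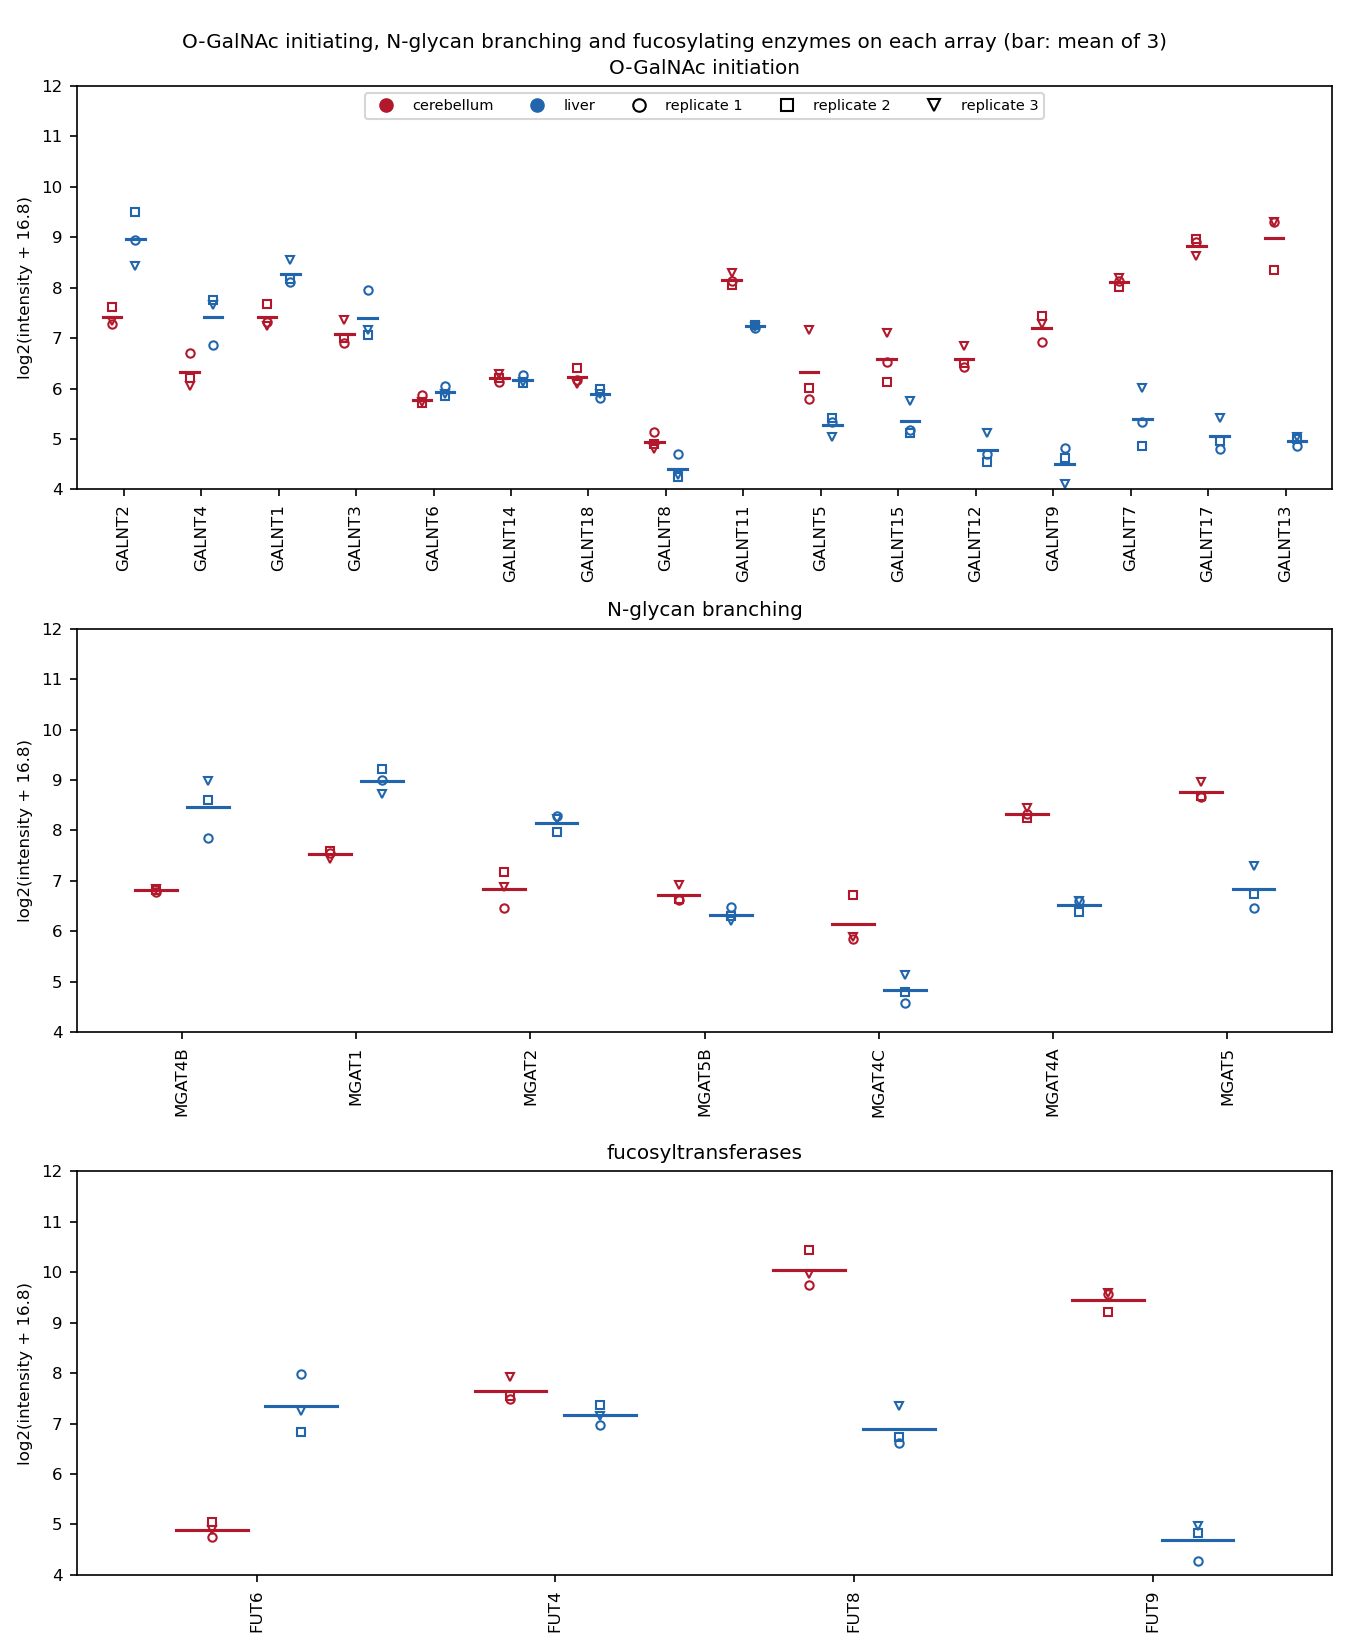
Log2(intensity + 16.8) of the O-GalNAc initiating enzymes (top), N-glycan branching enzymes (middle) and fucosyltransferases (bottom) on each array, with cerebellum in red, liver in blue, the replicate as the symbol and the mean as a bar. MGAT4B and MGAT4A change places between tissues, and FUT9, GALNT13 and GALNT17 show the widest gaps.

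Heparan sulfate is polymerised by EXT1 with EXT2 and then sulfated by NDST, HS2ST, HS6ST and HS3ST enzymes. Of 14 such members 4 were called higher in cerebellum, 3 higher in liver and 7 were not called. EXT1 was at 79.5, 66.5 and 101 in cerebellum against 464, 499.6 and 620.3 in liver, several-fold higher in each liver (difference -2.46, standard error 0.20, adjusted p = 1.75e-05; limma). Its partner EXT2 was at 212, 217 and 232 in cerebellum against 149.8, 183 and 194 in liver and was not called, with a difference of 0.31 toward cerebellum, although the values did not overlap. The NDST enzymes, which start sulfation by replacing acetyl groups, were called in opposite directions. NDST3 was at 1032, 528 and 873 in cerebellum against 5.95, 11.5 and 5.67 in liver, the largest difference toward cerebellum among all members (difference 5.04, standard error 0.26, adjusted p = 1.35e-06; limma), and its lowest value there, in replicate 2, was far above any liver. NDST1, the broadly expressed one, was at 166, 254 and 152 in cerebellum against 533, 496 and 394 in liver, higher in every liver (difference -1.26, standard error 0.23, adjusted p = 0.00184; limma). NDST4 was dim in both tissues, at 7.28, 29.3 and 15.8 in cerebellum against 7.92, 19.3 and 14.2 in liver.

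Of the 7 enzymes of the later sulfation steps 3 were called higher in cerebellum and 1 higher in liver. HS3ST1, which makes the antithrombin-binding site, was at 271, 238 and 376 in cerebellum against 157, 145 and 111 in liver, with all cerebella above all livers (difference 1.00, standard error 0.22, adjusted p = 0.00513; limma). HS3ST5, which can make the same site, was dim, at 37.7, 28.3 and 42.8 in cerebellum against 22.9, 7.80 and 14.3 in liver (difference 0.76, standard error 0.22, adjusted p = 0.0199; limma), and it was no longer called on omitting cerebellum replicate 1 or 3 or liver replicate 2. HS3ST4 was at 30.7, 24.2 and 55.9 in cerebellum against 24.6, -3.42 and 5.37 in liver (difference 1.07, standard error 0.35, adjusted p = 0.0328; limma). HS3ST2 was at 25.8, 78.6 and 48.9 in cerebellum against 155, 175 and 75.2 in liver (difference -1.17, standard error 0.36, adjusted p = 0.0250; limma). These were the 2 members that were called although their tissues overlapped. HS3ST4 was no longer called on omitting cerebellum replicate 1 or 3 or liver replicate 2 or 3, nor was HS3ST2 on omitting cerebellum replicate 1 or 3 or liver replicate 1 or 2. HS2ST1, the enzyme of 2-O-sulfation, HS6ST2 and HS6ST3 were not called, at 0.61, 0.14 and -0.12. HS6ST2 was at 31.7, 229 and 34.4 in cerebellum against 74.6, 52.0 and 55.1 in liver, where cerebellum replicate 2 alone was high, and its difference changed from 0.14 to -0.62 without that array (limma, adjusted p = 0.850 and 0.0384). That array had the highest cerebellum sums of macrophage, endothelial, fibroblast, astrocyte and neuron markers, whose part was not tested. EXTL3, which acts at the start of the chain, was at 257, 745 and 380.4 in cerebellum against 573, 529 and 217 in liver; its cerebella differed by more than its tissues did, and EXTL1 was not called at 0.43.

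Carbohydrate sulfotransferases had 1 call toward cerebellum and 3 toward liver among 12 members, and their median difference was -0.33, against 0.04 over all features. Without liver replicate 1 these counts were 2 and 5, CHST1 being added toward cerebellum and CHST4 and CHST9 toward liver. CHST10, which adds the sulfate of the HNK-1 epitope of neural adhesion molecules, was at 190.4, 175 and 164 in cerebellum against 21.2, 17.7 and 35.7 in liver, with close cerebella and no overlap (difference 2.24, standard error 0.20, adjusted p = 3.22e-05; limma). B3GAT1, which adds the glucuronic acid that CHST10 sulfates, was at 101 ± 14.5 in cerebellum against 60.7 ± 21.7 in liver, also called higher in cerebellum (difference 0.63, standard error 0.23, adjusted p = 0.0469; limma). CHST15, which makes disulfated chondroitin, was at 42.7, 166 and 40.4 in cerebellum against 240.5, 279 and 304 in liver. Cerebellum replicate 2 stood above the other cerebella, and without it the difference of -1.76 was -2.31. The macrophage, endothelial, fibroblast, astrocyte and neuron marker sums were also highest on that array, and their part was not tested. The second feature named CHST15 gave -1.91. CHST13, a chondroitin 4-O-sulfotransferase, was at 44.9, 41.5 and 45.8 in cerebellum against 137, 125 and 139 in liver, with close replicates in both tissues (difference -1.30, standard error 0.16, adjusted p = 1.73e-04; limma).

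CHST6, known for keratan sulfate in the cornea, was at 47.2, 43.4 and 30.9 in cerebellum against 62.1, 84.5 and 65.9 in liver (difference -0.62, standard error 0.19, adjusted p = 0.0263; limma) and was no longer called on omitting cerebellum replicate 3 or liver replicate 2. CHST9, which sulfates GalNAc at chain ends, was at 26.9, 32.9 and 22.2 in cerebellum against 40.6, 52.4 and 205 in liver. All livers were above all cerebella but most of the difference lay in liver replicate 3, and it was not called (difference -1.13; limma, adjusted p = 0.0686). Macrophage, T and natural killer cell, endothelial, fibroblast, bile duct and red cell and neutrophil marker sums were also highest on that array. The hepatocyte sum was lowest there, and the part of all these cells was not tested. CHST4 was dim, at 20, 20.4 and 20.1 in cerebellum against 15.2, 43.8 and 43.1 in liver, and CHST1, a keratan sulfate enzyme, was at 186, 82.5 and 131 in cerebellum against 124, 52.9 and 34.5 in liver; neither was called. The chondroitin enzymes CHST3, CHST7 and CHST11, the GlcNAc sulfotransferase CHST2 and the GalNAc sulfotransferase CHST8 were not called, with differences of 0.40, -0.29, -0.21, -0.37 and -0.04.

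**Figure D4:**
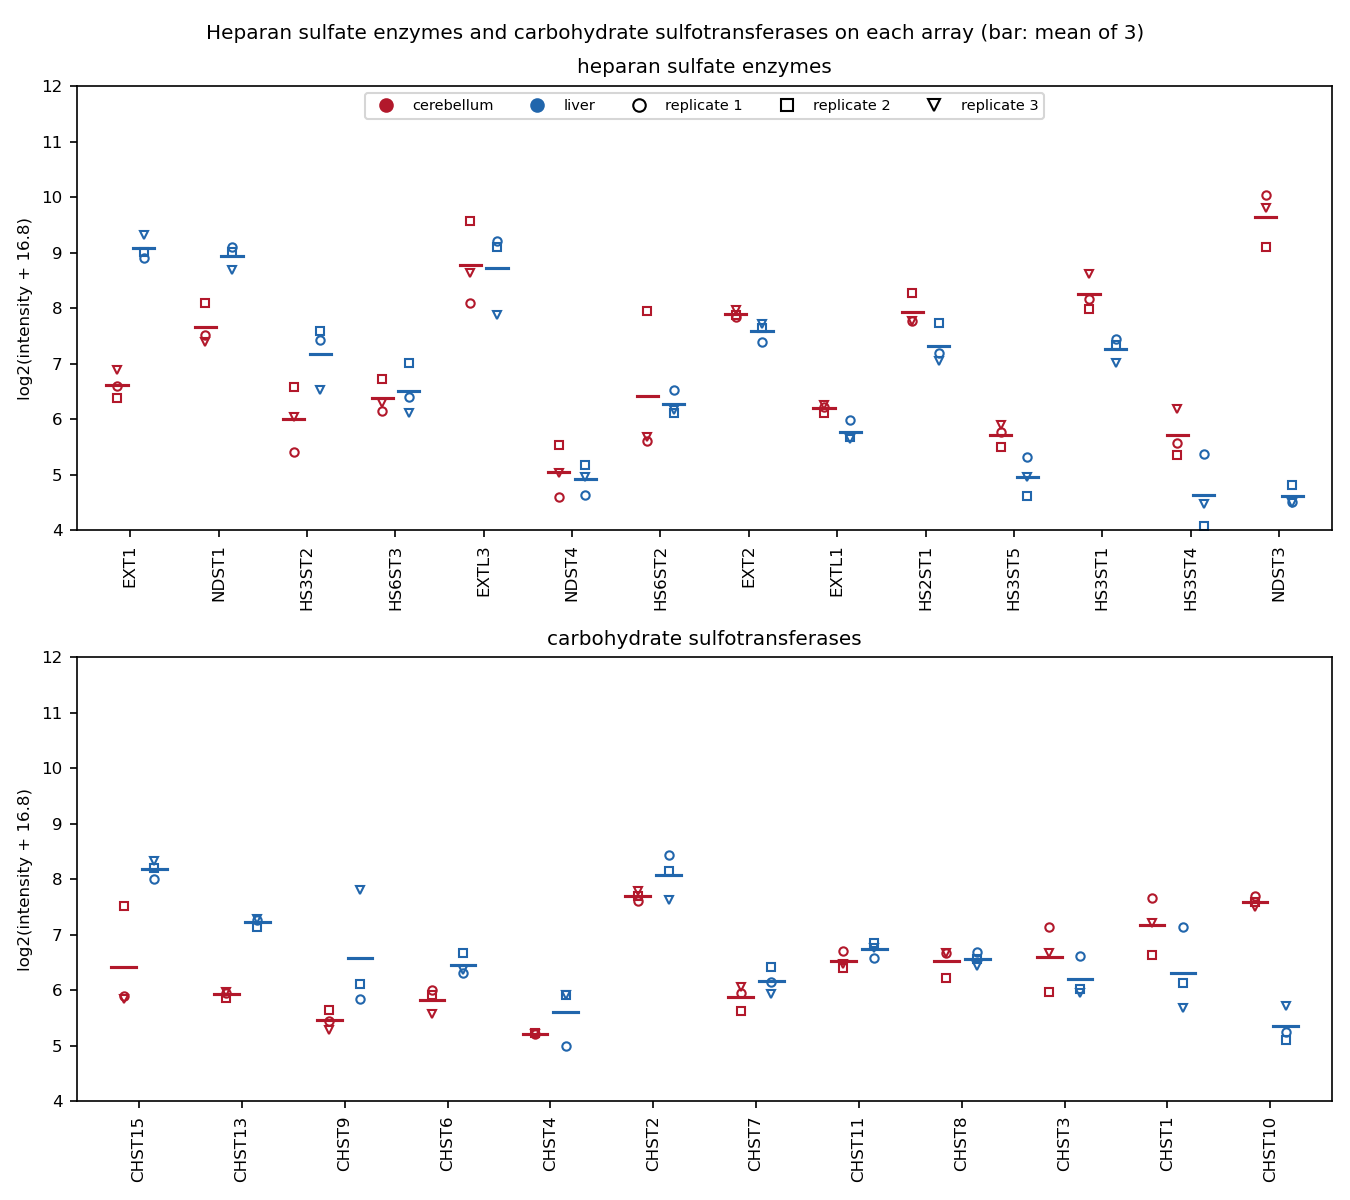
Log2(intensity + 16.8) of the heparan sulfate enzymes (upper panel) and carbohydrate sulfotransferases (lower panel) on each array, with cerebellum in red, liver in blue, the replicate as the symbol and the mean as a bar. NDST1 and NDST3 lie on opposite sides of the tissues, and single arrays stand apart for HS6ST2, CHST15 and CHST9.

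Genes that supply these transferases were called mainly toward liver. On 5 lists of sialic acid supply, donor synthesis, donor transport, lipid-linked precursor and N-glycan trimming, 77 genes that are not members were measured, of which 47 were called higher in liver and 6 higher in cerebellum, with a median difference of -0.996. Of all features 23.9%, and of the transferases 23.2%, were called toward liver, and the lists were chosen with results known. In the same order the lists had 4, 12, 8, 14 and 9 calls toward liver and 1, 1, 0, 3 and 1 toward cerebellum. Set level on the general genes, they had 3, 6, 5, 8 and 7 toward liver and 2, 2, 1, 4 and 2 toward cerebellum. On omitting cerebellum replicate 1 the transporter list had 5 calls toward liver. In sialic acid supply, GNE, the rate-limiting enzyme of sialic acid synthesis, was at 294 ± 7.32 in cerebellum against 782 ± 112 in liver and CTSA, a lysosomal partner of sialidase, differed by -2.24. CASD1, which acetylates sialic acid, was the list's call toward cerebellum (difference 2.10, standard error 0.17, adjusted p = 1.77e-05; limma). Among the transporters SLC35C1, which brings GDP-fucose into the Golgi, was at 17.7 ± 5.21 in cerebellum against 512 ± 64.7 in liver, and SLC35D2, a carrier of UDP-GlcNAc, differed by -3.11.

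Some isoenzyme pairs of these supply steps were called in opposite directions and others in the same one; the pairs named here were picked after their values were seen. PAPSS2 and PAPSS1 both make PAPS, the sulfate donor. PAPSS2 was at 16.1 ± 4.33 in cerebellum against 497 ± 79.7 in liver (difference -3.96, standard error 0.19, adjusted p = 9.56e-07; limma). PAPSS1 was at 282 ± 49.4 in cerebellum against 85.8 ± 36.4 in liver (difference 1.59, standard error 0.27, adjusted p = 0.00123; limma). MAN1A1 and MAN1A2 are Golgi mannosidases that trim N-glycans before MGAT1 acts. MAN1A1 was at 72.8 ± 30.4 in cerebellum against 1337 ± 360.3 in liver (difference -3.94, standard error 0.28, adjusted p = 8.79e-06; limma), and MAN1A2 was at 711 ± 38.6 in cerebellum against 256 ± 27.2 in liver (difference 1.42, standard error 0.17, adjusted p = 1.45e-04; limma). By contrast both members of 3 other pairs were called toward liver: STT3A and STT3B, the catalytic subunits of oligosaccharyltransferase, at -1.34 and -1.07, the folding sensors UGGT1 and UGGT2 at -0.95 and -1.24, and GMPPA and GMPPB of GDP-mannose supply at -1.54 and -1.09. UGDH, which makes UDP-glucuronic acid, and EDEM1, which marks misfolded glycoproteins, differed by -2.27 and -2.75. On the list of lipid-linked oligosaccharide and oligosaccharyltransferase genes, ALG3 and MPDU1 were the largest toward liver (-2.29 and -2.03), whereas TUSC3, an oligosaccharyltransferase subunit, was at 959 ± 40.6 in cerebellum against 47.9 ± 25.6 in liver (difference 3.99, standard error 0.27, adjusted p = 5.91e-06; limma), and DHDDS, which starts dolichol synthesis, differed by 0.97.

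The acceptor proteins and other chain steps had calls in both directions. Of all features 26.7% were called toward cerebellum and 23.9% toward liver, so no lean is read from the counts of these lists. Of 14 genes of glycosaminoglycan linker, chain and epimerases 4 were called higher in cerebellum and 3 higher in liver, or 7 and 2 when set level on the general genes. UST, a chondroitin 2-O-sulfotransferase, was at 707 ± 248 in cerebellum against 37.0 ± 1.23 in liver (difference 3.69, standard error 0.27, adjusted p = 9.81e-06; limma). GLCE, the epimerase of heparan sulfate, was at 1238 ± 112 in cerebellum against 367 ± 113 in liver (difference 1.75, standard error 0.23, adjusted p = 3.29e-04; limma). DSE and CSGALNACT1, enzymes of dermatan and chondroitin sulfate, were higher in liver by differences of -1.33 and -1.30. Of 22 proteoglycan core proteins 9 were called higher in cerebellum and 10 higher in liver. SPOCK1 and PTPRZ1, known from brain, were at 5.03 and 3.80, and SDC1 and GPC6, which carry heparan sulfate, were at -3.97 and -3.33.

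Of 12 genes of O-mannose and O-fucose glycosylation 4 were called higher in cerebellum and 3 in liver, or 5 and 1 when set level on the general genes. B4GAT1, an enzyme of dystroglycan, and the kinase POMK were at 1.93 and 1.02, while POFUT1, which fucosylates Notch, and POMGNT1, which extends O-mannose, were at -2.09 and -0.63. Among 9 carriers and readers of sialic acid 5 were called higher in cerebellum and 4 in liver. NCAM1 and NCAM2 led toward cerebellum (4.52 and 3.66), and ASGR2 and ASGR1, the subunits of the asialoglycoprotein receptor, led toward liver at 14.2 ± 0.208 in cerebellum against 849 ± 115 in liver for ASGR2 and 35.9 ± 7.33 in cerebellum against 591 ± 124 in liver for ASGR1.

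**Figure D5:**
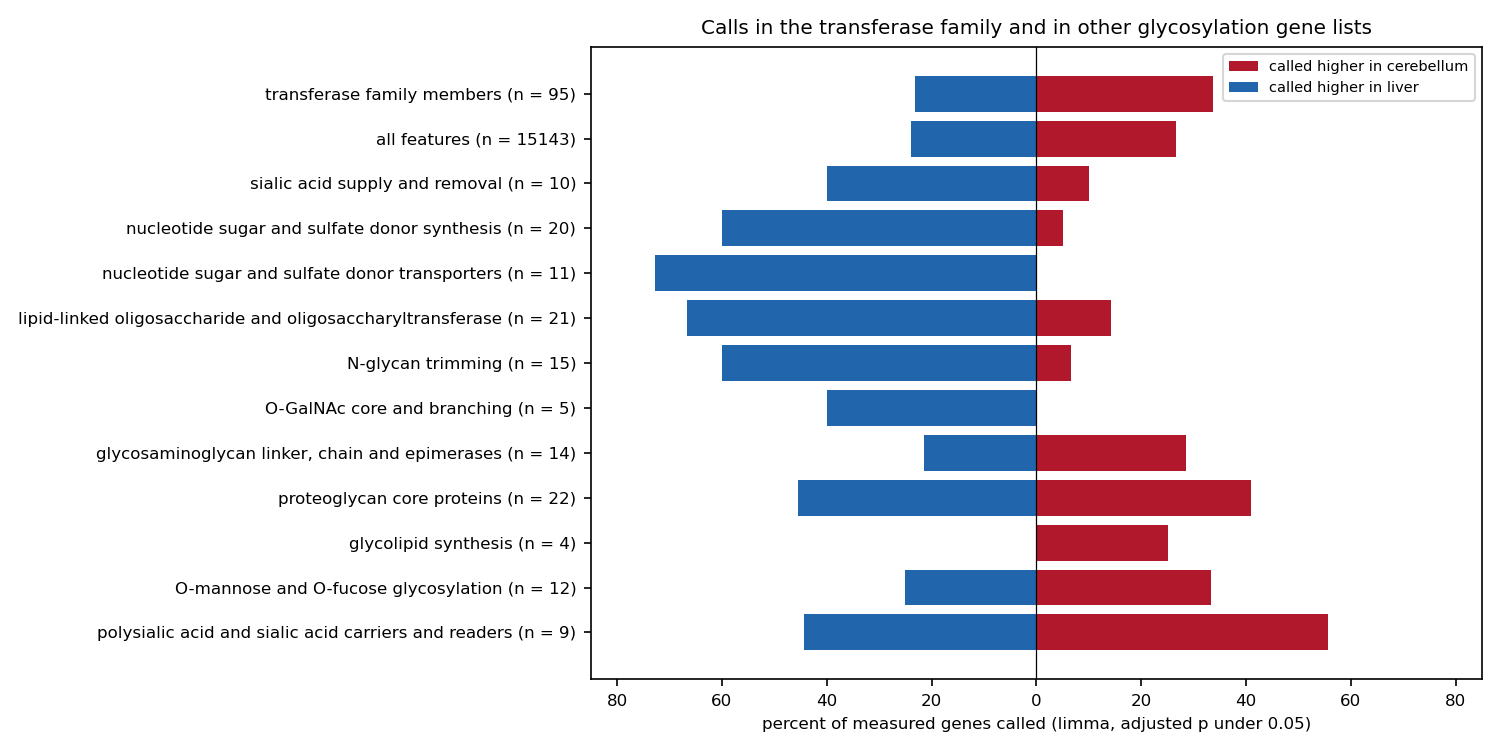
Percent of measured genes called higher in cerebellum (red, to the right) and higher in liver (blue, to the left) among the 95 transferase family members, all 15143 features and 11 lists of other glycosylation genes, whose sizes stand beside their names. The supply, transport, precursor and trimming lists extend mainly to the left, while the family itself extends to both sides.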

How the data were processed

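Intensity values of 3 cerebellum and 3 liver arrays were used as the authors deposited them, on a linear scale; the deposited intensities share 1 set of sorted values on all 6 arrays and so had been quantile normalized, and 93 per array lie below 0, so a background had been subtracted. The submitters' processing notes name GCOS; the probe summary is not given in the sources used here. Values below 0 were set to 0 and transformed as log2(intensity + 16.8), the 10th percentile of all values. This understates differences of dim genes. Tissues were compared over all 15143 features by limma 3.58.1 under R 4.3.3 (lmFit, then eBayes; two-sided), without a block, with Benjamini-Hochberg adjustment and a threshold of 0.05. The fit was also run on values simulated from the means and spreads of these data, with known changes added. The number of arrays limits the precision. P-values cover the spread between these samples only.

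The members, lists and tests were chosen with earlier results of these data known. Any family member may be named; values on each array are given for the called members with the largest differences in each class and direction and for members with 1 array over 2-fold from both others of its tissue, and the 2 largest calls in each direction of each other list are named, besides a few genes that act with a member and were picked after their values were seen. Alternatives were a replicate block, 2 other pseudocounts (5th and 20th percentile), a filter on dim features, median centring, alignment on 101 general genes, treat at 1.2-fold, an intensity trend with robust spread, the lowest row per symbol and leaving out each array; leaving out features with values below 0 was added after seeing the data. Gene names are those of the platform annotation, and 93 of the 95 symbols were found in the RefSeq gene table; coordinates are not printed, since the build behind the features is not given. Of the marker lists not counted in the report, those of astrocytes had 3 of 5 higher in cerebellum, bile duct cells 1 of 7 higher in cerebellum and 2 in liver and red cells and neutrophils 4 of 5 higher in liver; their part in the results was not tested.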

Additional observations from a re-analysis of the deposited data

How the results depend on the processing

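Of the 54 called members, 38 were called under each of the 15 refits that held them (24 toward cerebellum and 14 toward liver), keeping the lowest row of GALNT3 and CHST15 changed no call, and no called member changed direction. With arrays aligned on general genes, 49 members were called toward cerebellum and 14 toward liver, and 39 and 9 of them by 2-fold or more, in place of 32, 22, 24 and 17; this alignment shifts every difference by 0.52. Under the other alternatives every one of these 4 counts and that of all features called (7662) stayed within 1.5 times. Leaving out single arrays gave 26 to 32 members toward cerebellum, 19 to 24 toward liver, 21 to 26 and 14 to 18 by 2-fold or more, and 6113 to 7670 features. HS6ST2, not called with all arrays, was called toward liver without cerebellum replicate 2 (-0.62, limma adjusted p = 0.0384); omitting 1 array at a time moved its difference between -0.62 and 0.55. Treat against a 1.2-fold difference left 25 and 20 members called. Small class and list counts moved too: heparan sulfate enzymes had 2 calls toward cerebellum in place of 4 without dim features, with treat, or without cerebellum replicate 1 or 3, and 8 with the alignment.

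The replicate number was tried as a block, since replicates of 1 number share sex and age in both tissues, although the labels do not say that they are 1 animal. Deviations of same-numbered arrays from their tissue means correlated at 0.11, 0.16 and -0.14 over features, which does not establish a pairing. With the replicate block 32 members were called toward cerebellum and 21 toward liver, B3GALNT2, B3GALT5-AS1 and B4GALT2 losing their calls and CHST1 and HS2ST1 gaining one. Signal limits the dim members: 11 of the 95 had means under 38.3 (the 25th percentile of all values) in both tissues, and 7 of these were not called. Of the 32 members called higher in cerebellum, 23 had a liver mean under 38.3. Of the 22 called higher in liver, 6 had a cerebellum mean under it. The size of such differences depends on the pseudocount.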
